A study of Mus musculus with 25 samples.

Results

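The genes that build cholesterol and fatty acids were compared between 5 murine melanoma lines. The set holds 35 genes, listed by symbol: 8 enzymes of the mevalonate pathway, 11 enzymes from squalene to cholesterol, 5 regulators, a sterol carrier, 8 enzymes of fatty acid synthesis and desaturation, and 2 sterol exporters. They are 35 of 55385 genes in the count files and 35 of the 15247 genes that passed the filter on low counts, so that every one was tested. One of them, Abcg1, passed only through its level in D4M.

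Each line was represented by 5 cultures harvested for RNA at a confluency of 50% and without any drug, giving 25 libraries. The mice behind WT31 carried Tyr::NrasQ61K/° and lacked INK4a (INK4a-/-). RET came from mice that overexpress human RET under the mouse metallothionein promoter, HCmel12 from a primary melanoma of an HGF-CDK4(R24C) mouse, and D4M from mice with Tyr::CreER and BrafCA among their alleles. B16F10 luc2 is a purchased luciferase line of B16F10, which carries many mutations, Trp53 among them. WT31, B16F10 luc2 and RET were studied as lines of high or intermediate efficiency of liver colonization and D4M and HCmel12 as lines of low efficiency. Each line stands for a single established culture, so that p-values measure the spread between cultures within lines, pooled over the 5 lines, and not between tumors.

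The growth conditions differed by line. WT31 and RET grew in RPMI with 10% fetal calf serum, and according to the methods so did B16F10 luc2, for which the labels name no medium. HCmel12 was kept in RPMI with the same 10% of serum, to which Hepes, β-mercaptoethanol, glutamine, pyruvate and non-essential amino acids had been added. D4M grew in Advanced DMEM/F-12 with 5% serum and glutamine. Serum carries cholesterol and fatty acids in lipoproteins, and for lines that differ in them the line, the medium and the serum cannot be told apart.

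Library totals lay between 24199083 and 25843286 estimated counts, and levels below are counts per 1000000 counts of the library (CPM) after scaling with TMM factors. A count of 3, taken as the detection floor, was worth 0.116 to 0.124 CPM before this scaling. Melanocyte markers checked the labelled cell type: the summed CPM of 9 markers was between 12296 and 31372 in the libraries of WT31, B16F10 luc2, RET and HCmel12 and between 6.59 and 60.7 in D4M, where 4 of 9 had a mean of at least 1 CPM and Oca2 was at the floor. The summed CPM of 6 fibroblast markers was 458 to 682 in D4M, with Lum at the floor, and 1.24 to 88.6 elsewhere. The D4M values below go with these marker levels, and their part in the results was not tested. The summed CPM of 6 macrophage markers was 2.26 to 16.6, with Ptprc, Adgre1 and Tyrobp at the floor in every line. Of the others, Lyz2 was at 8.13 ± 3.27 CPM in WT31 and at the floor in D4M, and Cd68 was at 8.01 ± 5.15 CPM in D4M and at 0.601 ± 0.221 in WT31. The summed CPM of 5 endothelial markers was 25.4 to 39.2 in HCmel12, nearly all of it Kdr (31 ± 5.71 CPM), with Cdh5 and Stab2 at the floor, and at most 2.45 in the other lines. The part of these markers in the results was not tested either. Adipocyte and hepatocyte markers, from cell types rich in lipid synthesis, summed to at most 0.406 and 0.496 CPM in any library.

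Cholesterol is built from acetyl-CoA by the mevalonate pathway, which ends in isoprenoid units, and by the sterol branch, which joins them to squalene and closes and trims the ring. Both branches, and most genes of fatty acid synthesis, are switched on by the transcription factors SREBP1 and SREBP2, encoded by Srebf1 and Srebf2. When membranes hold enough sterol, INSIG proteins keep the SREBP escort SCAP in the endoplasmic reticulum, and the factors stay inactive. Oxidized sterols activate the LXR receptors, whose known targets include Abca1, Abcg1 and Srebf1.

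Most synthesis genes were higher in WT31 and HCmel12 than in B16F10 luc2 and RET. D4M was between these pairs of lines in many genes. All D4M cultures lay below all others in 2 of 35 genes (Insig2 and Ebp), where 11.5% of all genes showed this. They lay above all others in 3 of 35 (Srebf1 and both exporters), where 16.7% of all genes did, so that both shares were lower than over all genes. By line mean, 18 of the 35 genes had their highest level in WT31 and 10 in HCmel12, against 5 in D4M and 1 each in B16F10 luc2 and RET. The lowest level fell in RET for 14 genes, in B16F10 luc2 for 13, in D4M for 4, in WT31 for 3 and in HCmel12 for 1. Over all genes tested, the highest level fell in WT31 for 22.1%, in B16F10 luc2 for 18%, in RET for 15.8%, in HCmel12 for 16.6% and in D4M for 27.4%. The lowest level over all genes fell in these lines for 22.6%, 18%, 16%, 17% and 26.4%, in the same order. The heat map of the 25 libraries shows the same order in most rows.

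**Figure D1:**
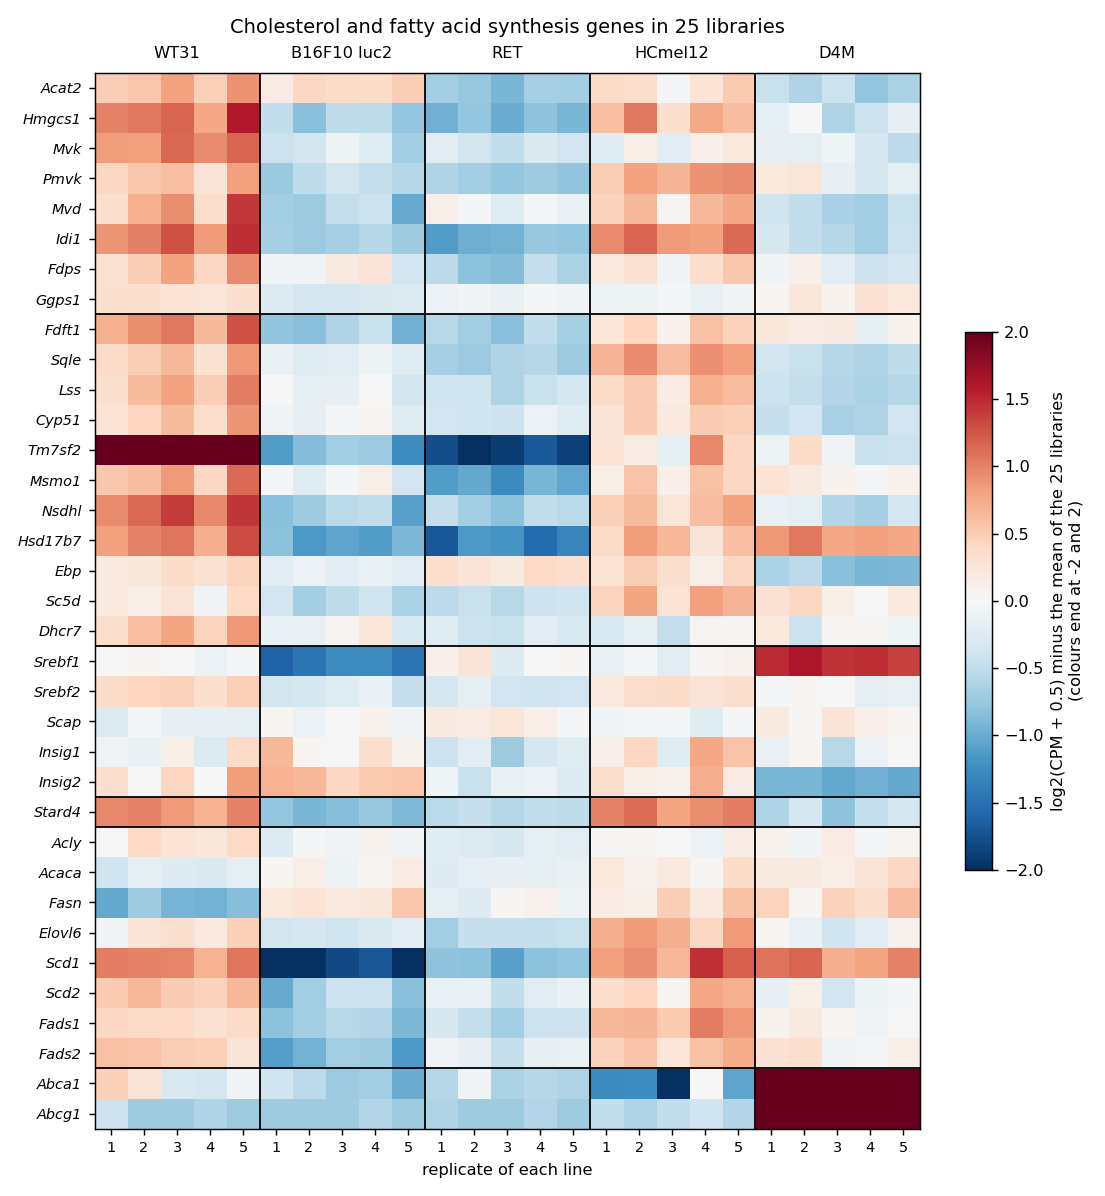
Each row is 1 of the 35 genes and each column 1 library, in the order of lines and replicates given on the axes. Colour is log2(CPM + 0.5) minus the mean of the gene over the 25 libraries, black lines separate lines of cells and gene roles, and the first 2 blocks of rows (19 enzymes) are mostly red in WT31 and HCmel12 and mostly blue in B16F10 luc2 and RET.

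Each pair of lines was compared with limma-voom over all tested genes, and a gene was called at a Benjamini-Hochberg adjusted p under 0.05. In bulk RNA, fewer cells that express a gene and less RNA per cell cannot be told apart. In each pair most tested genes were called in one direction or the other, so every count has to be read against that background. WT31 was higher than RET in 29 of 35 genes and lower in 2, where 36.8% and 36.4% of all genes were called. Both lines grew in RPMI with 10% serum by the labels. WT31 was also higher than B16F10 luc2 in 29 and lower in 3, against a background of 36.4% in each direction. Compared to HCmel12, RET was higher in 2 (Scap and Abca1; all genes 34%) and lower in 29 (33.3%), and B16F10 luc2 was higher in 1 (Insig2; 35.3%) and lower in 25 (33.8%). The 29 and the 25 include Abcg1, which passed the filter only through D4M and was at the floor in these lines. The call of Insig2 (limma adjusted p = 0.048) was lost under every other scaling, test, filter, unit and model tried, and in most fits that left out 1 library.

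WT31 and HCmel12 differed from each other in 21 genes, with 13 higher in WT31 (all genes 36.1%) and 8 lower (34.3%), so that the share higher was close to the background. Among the 8 is Abcg1, which passed the filter only through D4M and was at the floor in both lines. With TPM (pseudocount 1) in place of counts this split became 20 and 5, where 42.2% and 24.6% of all genes were called. B16F10 luc2 and RET also differed in both directions, with 12 higher in B16F10 luc2 (25.2%) and 10 lower (26.2%).

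D4M was compared with each line. Abcg1, which passed the filter only through D4M, is among the genes higher in D4M in each comparison of this paragraph. WT31 was higher than D4M in 25 genes (37.5%) and lower in 6 (38.6%), and HCmel12 was higher in 23 (35.7%) and lower in 6 (36.8%). In contrast, RET was higher than D4M in 3 genes (38.8%) and lower in 22 (38.3%), and B16F10 luc2 was higher in 7 (38.8%) and lower in 19 (38.9%). When only library size was used for scaling, which moved the median of all genes by up to 0.22 on the log2 scale in comparisons with D4M, RET was higher in 7 (47.3% of all genes under that scaling) and lower in 14 (31.3%). B16F10 luc2 was then higher in 8 (45.3%) and lower in 13 (33.4%), and HCmel12 was higher in 24 (44.8%) and lower in 3 (29.4%). Against the mean of the 4 other lines D4M was higher in 10 genes (38.7%) and lower in 12 (39.6%), both below the background share. That balance depended on scaling, with 6 higher and 21 lower for library size alone (30.8% and 50.3% of all genes) and 6 and 20 for TPM (29.5% and 47.4%).

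**Figure D2:**
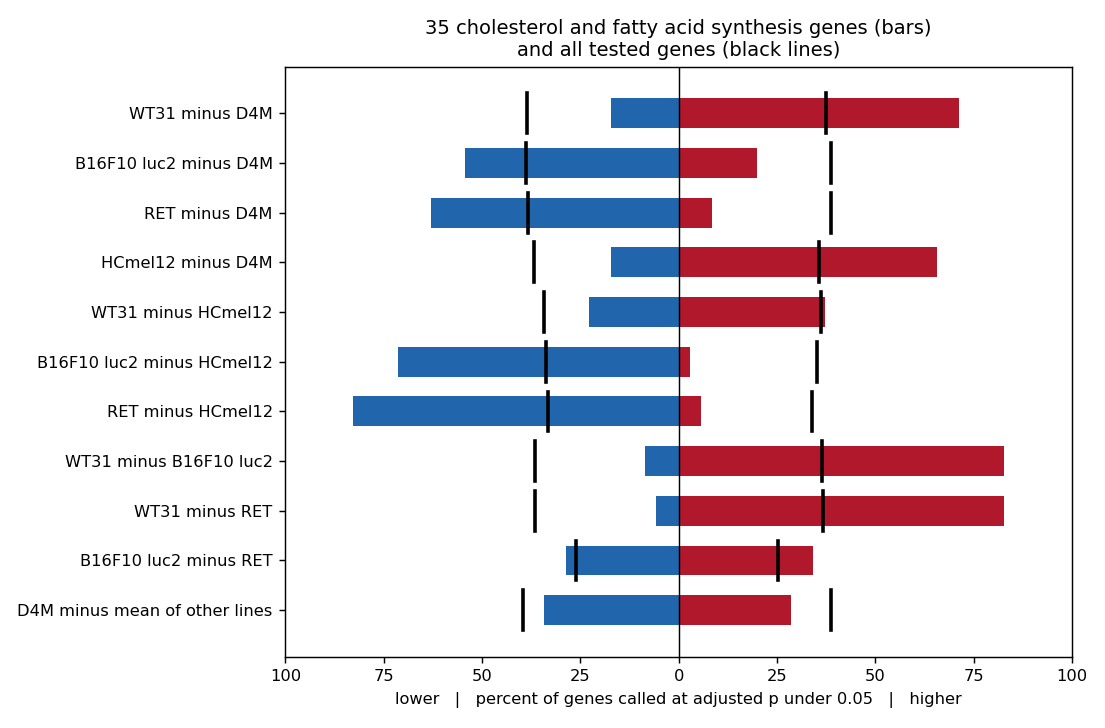
Bars give the percent of the 35 genes called higher (right, red) or lower (left, blue) in each comparison, and black lines give the percent of all 15247 tested genes called in that direction. The bars for WT31 minus RET and WT31 minus B16F10 luc2 reach 29 of 35 genes on the right. Those for RET minus HCmel12 reach 29 of 35 on the left, with Abcg1 among them.

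Of the mevalonate genes, all 8 were higher in WT31 than in B16F10 luc2 (36.4% of all genes), RET (36.8%) and D4M (37.5%). Compared to HCmel12, 7 of 8 were lower in RET (33.3%) and 6 of 8 in B16F10 luc2 (33.8%). Hmgcs1 makes HMG-CoA, the precursor of mevalonate. It was at 264, 277, 299, 228 and 406 CPM in the WT31 cultures and at 202, 276, 167, 225 and 204 CPM in HCmel12. In B16F10 luc2 the values were 94.2, 74.3, 93.6, 93.7 and 77.5 CPM, in RET 67.7, 77.2, 66.9, 76.0 and 70.0 CPM, and in D4M 116, 134, 87.0, 100 and 118 CPM. All WT31 and HCmel12 cultures lay above all others, and D4M overlapped with B16F10 luc2 but not with RET. Hmgcs1 was 4.05-fold higher in WT31 than in RET (log2 fold change 2.02, SE 0.13, limma adjusted p = 4.3e-13) and 2.97-fold lower in RET than in HCmel12 (adjusted p = 9.15e-11). B16F10 luc2 and RET did not pass the test (log2 fold change 0.27, SE 0.14, limma adjusted p = 0.104), although they did in a fit of these lines alone (0.26).

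Idi1 interconverts the 2 isoprenoid building blocks. It was at 214, 232, 280, 208 and 324 CPM in WT31 and at 224, 259, 208, 205 and 254 CPM in HCmel12, so that these lines overlapped. Its values were 73.0, 69.6, 73.2, 77.7 and 70.6 CPM in B16F10 luc2, 53.2, 58.7, 60.0, 68.1 and 67.6 CPM in RET, and 92.9, 81.7, 77.5, 71.6 and 85.3 CPM in D4M. All of these lay below every culture of WT31 and HCmel12. The fold change was 4.05 between WT31 and RET (log2 2.02, SE 0.10, limma adjusted p = 1.9e-15) and 3.73, lower in RET, against HCmel12 (adjusted p = 9.37e-15). WT31 and HCmel12 did not pass the test (log2 fold change 0.12, SE 0.10, limma adjusted p = 0.298), although they did with TPM (log2 fold change 0.27).

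Pmvk, the kinase that adds the second phosphate to mevalonate, was the mevalonate gene with a higher mean in HCmel12 than in WT31. HCmel12 had 25.7, 31.8, 29.3, 33.9 and 35.3 CPM and WT31 24.2, 26.6, 27.7, 21.7 and 32.1 CPM. The other lines had 10.6, 12.5, 13.9, 12.9 and 12 CPM (B16F10 luc2), 11.7, 10.9, 10.3, 10.8 and 10.2 CPM (RET), and 21, 21.5, 16.1, 14.4 and 15.8 CPM (D4M). The highest D4M culture, at 21.5 CPM, lay just below the lowest WT31 culture, at 21.7 CPM. RET was 2.88-fold below HCmel12 (log2 fold change -1.52, SE 0.12, limma adjusted p = 2.05e-11).

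The other mevalonate genes had smaller ranges. Acat2, which joins acetyl-CoA units, was at a similar level in B16F10 luc2 (84.4 ± 7.02 CPM, SD, n = 5) and HCmel12 (81.2 ± 11.0 CPM). RET was at 39.0 ± 2.76 and D4M at 43.8 ± 4.21 CPM, and B16F10 luc2 was 2.16-fold above RET (log2 fold change 1.11, SE 0.10, limma adjusted p = 4.55e-10). Its transcripts share 43.7% of their 31-base sequences with Acat3, so that the division of reads between both genes is uncertain. Mvd, the mevalonate diphosphate decarboxylase, went the other way between these lines, at 16.2 ± 2.50 CPM in B16F10 luc2 and 24.6 ± 2.42 in RET (log2 fold change -0.62, SE 0.19, limma adjusted p = 0.00756). Mvk, mevalonate kinase, was at 63.3 ± 7.31 CPM in WT31 and between 24.6 and 31.8 CPM on average in the other lines. Fdps, which makes farnesyl diphosphate, ranged from 106 ± 12.9 CPM in RET to 255 ± 49.0 in WT31. Ggps1, which makes geranylgeranyl diphosphate for protein prenylation and lies beside the route to cholesterol, varied least, from 35.6 ± 0.882 CPM in B16F10 luc2 to 54.2 ± 1.44 in WT31 (1.52-fold, log2 0.60, SE 0.05, limma adjusted p = 1.77e-11). Reads of Hmgcs1, Idi1, Fdps and Ggps1 are also partly ambiguous, with 13.1%, 27.1%, 27.9% and 14.9% of 31-base sequences shared with other genes.

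The bases before the start sites of the genes of the set were inspected, whatever their order of lines. SREBP sites lie close to the start together with boxes for the cofactor NF-Y. RefSeq windows of GRCm38.p6 were found for 27 of the 35 genes. Fdps, Fdft1, Sqle, Stard4, Scd1, Scd2, Fads1 and Abcg1 had no entry. Of 250 bases before the start, the sterol regulatory element core TCACNCCAC was found on either strand in 1 of 27 genes (Hmgcs1) and in 1.22% of all genes. The NF-Y box CCAAT was found in 20 of 27 genes and in 37.5% of all genes, and the E-box CACGTG in 6 of 27 and in 6.86%. The 20 include Ebp, Fasn, Srebf1, Insig1 and Insig2, which had other orders of lines. A match is a description of letters and shows no binding. Hmgcs1, Idi1, Nsdhl and Hsd17b7 are shown as enzymes with wide ranges between lines, with capitals for matches to these motifs on either strand (ATTGG is CCAAT on the other strand). Positions count back from the start. In Hmgcs1 (chr13:119690101-119690350, plus strand) the sterol element began at -137, between NF-Y boxes at -237, -176 and -45.
Hmgcs1: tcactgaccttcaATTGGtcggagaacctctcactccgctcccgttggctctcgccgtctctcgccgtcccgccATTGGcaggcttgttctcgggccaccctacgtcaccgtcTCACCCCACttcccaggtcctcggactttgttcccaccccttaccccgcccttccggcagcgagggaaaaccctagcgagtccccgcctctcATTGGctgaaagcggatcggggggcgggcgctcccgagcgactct
Idi1: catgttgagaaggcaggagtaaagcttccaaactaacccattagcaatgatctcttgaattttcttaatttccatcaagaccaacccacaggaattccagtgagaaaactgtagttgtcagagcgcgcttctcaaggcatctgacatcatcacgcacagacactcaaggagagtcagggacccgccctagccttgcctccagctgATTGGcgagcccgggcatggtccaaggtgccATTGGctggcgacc
Nsdhl: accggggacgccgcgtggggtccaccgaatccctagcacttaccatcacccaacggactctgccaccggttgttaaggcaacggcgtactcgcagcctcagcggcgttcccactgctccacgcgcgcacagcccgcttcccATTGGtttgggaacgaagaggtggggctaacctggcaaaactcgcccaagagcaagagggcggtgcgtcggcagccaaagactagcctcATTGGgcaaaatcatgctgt
Hsd17b7: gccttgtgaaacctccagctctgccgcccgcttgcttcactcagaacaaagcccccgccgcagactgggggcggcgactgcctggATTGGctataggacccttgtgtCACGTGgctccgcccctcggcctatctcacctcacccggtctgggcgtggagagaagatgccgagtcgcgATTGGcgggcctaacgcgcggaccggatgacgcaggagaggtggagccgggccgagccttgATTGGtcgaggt
The Idi1 window (chr13:8885356-8885605, plus strand) held NF-Y boxes at -45 and -14, and that of Nsdhl (chrX:72918271-72918520, plus strand) at -109 and -20. The Hsd17b7 window (chr1:169969206-169969455, minus strand) held NF-Y boxes at -165, -73 and -12 and an E-box at -143.

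Of the 11 sterol enzymes, all 11 were higher in WT31 than in B16F10 luc2 (36.4% of all genes) and 10 were higher than in RET (36.8%), with Ebp as the exception. The widest range was that of Tm7sf2, a sterol reductase that removes the double bond at carbon C14. WT31 had 62.1, 76.2, 69.8, 63.5 and 64.3 CPM, HCmel12 12.8, 11.7, 9.12, 20.8 and 14.1 CPM, and D4M 9.73, 13.6, 9.93, 7.59 and 7.62 CPM. B16F10 luc2 had 4.58, 5.52, 6.35, 6.11 and 4.12 CPM and RET 2.71, 1.98, 2.44, 2.92 and 2.51 CPM. WT31 stood above all other cultures, by 26.7-fold against RET (log2 4.74, SE 0.22, limma adjusted p = 3.54e-16) and 5.07-fold against HCmel12 (log2 2.34, SE 0.13, adjusted p = 1.87e-14), and every pair of lines passed the test. Transcripts of Tm7sf2 share 10.7% of their 31-base sequences with the neighbouring Vps51.

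Hsd17b7, a sterol reductase acting on the ketone left by demethylation, set D4M apart from RET and B16F10 luc2. D4M had 57.9, 66.4, 54.4, 56.4 and 54.6 CPM, WT31 55.9, 63.2, 67.1, 52.7 and 78.7 CPM, and HCmel12 41.3, 56.5, 50.1, 38.0 and 48.0 CPM. B16F10 luc2 had 17.7, 14, 14.9, 14.3 and 16.7 CPM and RET 9.45, 13.9, 13.6, 10.5 and 12.3 CPM. The first 3 lines overlapped, and all their cultures lay above those of the latter 2. RET was 4.87-fold below D4M (log2 fold change -2.28, SE 0.13, limma adjusted p = 2.24e-14) and WT31 was 5.3-fold above RET (adjusted p = 1.06e-14). WT31 and D4M did not pass the test with TMM scaling (log2 fold change 0.12, limma adjusted p = 0.284), but did with library size alone (0.35) and with TPM (0.37).

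Nsdhl, which removes a carboxyl group in the demethylation at carbon C4, was at 151, 171, 206, 152 and 212 CPM in WT31 and at 109, 121, 92.2, 120 and 137 CPM in HCmel12. The other lines had 43.3, 47.5, 53.7, 55.3 and 36.6 CPM (B16F10 luc2), 56.1, 48.3, 43.9, 55.3 and 53.5 CPM (RET), and 70.4, 69.0, 51.7, 49.1 and 60.9 CPM (D4M). WT31 lay above HCmel12 without overlap, and both lay above the rest. Nsdhl was 3.78-fold higher in WT31 than in B16F10 luc2 (log2 1.92, SE 0.13, limma adjusted p = 3.61e-13) and 1.54-fold higher than in HCmel12 (adjusted p = 5.28e-05).

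Ebp, the sterol isomerase that moves the ring double bond, had another order. It was at 35.2, 38.1, 30.4, 29.0 and 29.2 CPM in D4M, below all 20 other cultures. B16F10 luc2 followed with 47.2, 50.4, 47.4, 50.2 and 46.8 CPM. WT31 (62.8, 64.3, 71.1, 68.2 and 74.9 CPM), RET (69.6, 66.0, 61.9, 72.3 and 69.6 CPM) and HCmel12 (66.3, 77.3, 68.4, 59.8 and 73.4 CPM) overlapped, and no pair among them passed the test. D4M was 1.95-fold below the mean of the other lines (log2 fold change -0.96, SE 0.06, limma adjusted p = 2.73e-13). Ebp and Insig2 were the 2 of 35 genes with all D4M cultures below the others, where 11.5% of all genes showed this. The window of Ebp (chrX:8193513-8193762, minus strand) is printed as the enzyme with the other order, and it held NF-Y boxes at -170 and -55.
Ebp: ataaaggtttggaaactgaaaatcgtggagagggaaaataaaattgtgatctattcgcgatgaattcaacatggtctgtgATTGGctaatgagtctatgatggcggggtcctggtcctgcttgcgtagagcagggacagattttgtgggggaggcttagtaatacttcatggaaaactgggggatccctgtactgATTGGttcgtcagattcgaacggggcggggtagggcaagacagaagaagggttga

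The remaining sterol enzymes are given by their means. Fdft1, squalene synthase, was at 152 ± 27.3 CPM in WT31, 102 ± 14 in HCmel12, 84.7 ± 9.05 in D4M, 50.3 ± 4.60 in RET and 48.0 ± 7.06 in B16F10 luc2. Its transcripts share 17.6% of their 31-base sequences with Ctsb. Sqle, the epoxidase, was highest in HCmel12 (256 ± 24.8 CPM) and lowest in RET (93.1 ± 4.49 CPM). Lss, which closes the ring, and Cyp51, which removes the methyl group at C14, were lowest in D4M (40.6 ± 2.27 and 144 ± 12.4 CPM) and highest in WT31 (94.4 ± 17.9 and 293 ± 52.4 CPM). Msmo1, the C4 methyl oxidase, was 3.45-fold higher in WT31 than in RET (277 ± 57.2 against 79.1 ± 7.23 CPM; log2 1.79, SE 0.12, limma adjusted p = 7.16e-13). Sc5d, which adds a ring double bond, was highest in HCmel12 (82.6 ± 13.1 CPM), followed by D4M (62.2 ± 6.95) and WT31 (61.2 ± 7.29), and lower in RET (38.7 ± 1.82) and B16F10 luc2 (37.4 ± 3.41). Dhcr7, the reductase that diverts 7-dehydrocholesterol from vitamin D3, separated WT31 (256 ± 38.8 CPM) from the other lines, whose means were 133 to 163 CPM. HCmel12 was not high for Dhcr7 (149 ± 23.9 CPM; RET against HCmel12, log2 fold change -0.15, SE 0.12, limma adjusted p = 0.287).

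The summed CPM of the 19 mevalonate and sterol enzymes was 2820 ± 474 in WT31 (SD, n = 5), 2269 ± 253 in HCmel12, 1434 ± 104 in D4M, 1391 ± 126 in B16F10 luc2 and 1114 ± 67 in RET. The cultures of WT31 (2399 to 3524) and HCmel12 (1909 to 2481) lay above those of the other lines (1027 to 1559). Within a line, some cultures had most enzymes above the mean of the line and others had few. In WT31 replicate 5, 18 of 19 enzymes were above the mean of the line, with a median deviation of 0.32 on the log2 scale, where 52.2% of all tested genes were above their mean. In WT31 replicate 3 it was again 18 of 19 (all genes 47.3%), and in replicate 4 it was 1 of 19 (48.3%). HCmel12 had 18 of 19 in replicate 5 (all genes 50.5%), 1 of 19 in replicate 1 (47.8%) and 2 of 19 in replicate 3 (48.1%). The median deviation was -0.29 in replicate 3. D4M had 18 of 19 in replicate 1 (52.2%) and 2 of 19 in replicate 4 (44.3%), which were also the highest and lowest shares of all genes in D4M. B16F10 luc2 ranged from 3 of 19 in replicate 5 (47.6%) to 18 of 19 in replicate 4 (49.7%), with 9 of 19 in replicate 1. RET ranged from 2 of 19 in replicate 3 (47.6%) to 17 of 19 in replicate 4 (49.2%), and its other cultures had 8, 11 and 13 of 19. In every line the share of all genes was highest in a culture with 17 or 18 of 19 enzymes above the mean. This is a description of single cultures, and the labels give no date or batch to set beside it. Leaving out WT31 replicate 5 changed the counts of WT31 against HCmel12 from 13 and 8 to 11 and 8.

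**Figure D3:**
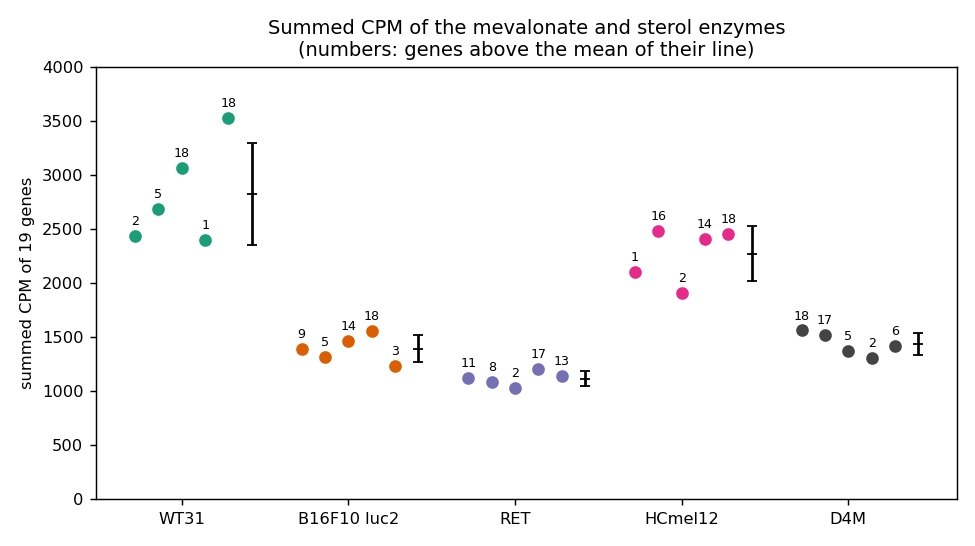
Points give the summed CPM of the 19 mevalonate and sterol enzymes in each culture, black bars the mean and SD of the 5 cultures, and the number over each point the count of the 19 enzymes above the mean of their line in that culture. WT31 (2399 to 3524) and HCmel12 (1909 to 2481) lie above the other lines, and cultures with a high sum have up to 18 of 19 enzymes above the mean.

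Of the regulators, Srebf2 shared this order, while Srebf1, Scap and both Insig genes did not. Srebf1 was at 424, 465, 411, 420 and 390 CPM in D4M, above all 20 other cultures. WT31 had 151, 153, 152, 139 and 147 CPM, RET 162, 181, 126, 152 and 154 CPM, HCmel12 136, 147, 129, 154 and 160 CPM, and B16F10 luc2 48.8, 54.4, 63.2, 62.6 and 54.3 CPM. The middle 3 lines overlapped and no pair of them passed the test. D4M was 3.61-fold above the mean of the other lines (log2 1.85, SE 0.06, limma adjusted p = 4.99e-20), and B16F10 luc2 was 2.73-fold below RET (log2 fold change -1.45, SE 0.08, adjusted p = 1.21e-13). D4M was therefore highest for Srebf1 while the summed enzymes were in the range of B16F10 luc2.

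Srebf2, the SREBP mainly tied to cholesterol synthesis, was at 327, 341, 347, 317 and 354 CPM in WT31 and at 290, 319, 325, 304 and 317 CPM in HCmel12. D4M had 246, 261, 255, 221 and 229 CPM, B16F10 luc2 196, 203, 214, 231 and 184 CPM, and RET 201, 222, 194, 192 and 193 CPM. This was the order of the enzymes with a narrower range, at 1.68-fold between WT31 and RET (log2 0.75, SE 0.06, limma adjusted p = 1.36e-11). WT31 and HCmel12 did not pass the test (log2 fold change 0.12, limma adjusted p = 0.0793), although they did with library size alone (0.17), with TPM (0.33) or without WT31 replicate 4 (0.14). Scap varied least of all 35 genes, with means from 77.7 ± 5.03 CPM in WT31 to 96.0 ± 6.51 in RET (log2 fold change of WT31 -0.30, SE 0.06, limma adjusted p = 7.07e-05), a call that was lost with TPM (-0.16).

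Insig1, itself a known SREBP target, was at 153, 190, 120, 245 and 213 CPM in HCmel12, 226, 147, 142, 178 and 149 CPM in B16F10 luc2 and 135, 130, 154, 118 and 185 CPM in WT31. D4M had 128, 145, 96.8, 132 and 141 CPM and RET 107, 123, 86.6, 113 and 121 CPM. All 5 lines overlapped with at least one other, and B16F10 luc2, low for the enzymes, was not low for Insig1. RET was 1.63-fold below HCmel12 (log2 fold change -0.71, SE 0.16, limma adjusted p = 0.000438), and D4M did not differ from the mean of the others past the threshold (log2 fold change -0.20, SE 0.13, limma adjusted p = 0.154), although it did with library size alone (-0.39) and with TPM (-0.36).

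Insig2 was at 20.3, 20.4, 18.9, 19.6 and 18.9 CPM in D4M, below every other culture. B16F10 luc2 had 62.9, 61.6, 51.6, 55.7 and 57.2 CPM, WT31 48.9, 38.4, 52.3, 39.0 and 69.6 CPM, HCmel12 49.8, 42.1, 40.9, 64.5 and 43.5 CPM, and RET 36.5, 28.4, 35, 35.5 and 32.4 CPM. D4M was 2.34-fold below the mean of the other lines (log2 fold change -1.23, SE 0.13, limma adjusted p = 1.4e-09). D4M thus carried the highest Srebf1 and the lowest Insig2 of the 5 lines.

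Stard4, which carries cholesterol between membranes and is another known SREBP target, followed the enzymes. HCmel12 had 79.5, 87.0, 69.2, 76.0 and 81.7 CPM and WT31 77.7, 79.8, 72.3, 64.5 and 79.9 CPM. D4M had 26.2, 31.1, 22.6, 28.5 and 31 CPM, RET 27.2, 28.7, 26.6, 28.1 and 27.9 CPM, and B16F10 luc2 23.1, 20.9, 21.9, 23.3 and 21.3 CPM. The values fell into a high and a low set with no culture between 31.1 and 64.5 CPM. HCmel12 was 3.55-fold above B16F10 luc2 (log2 fold change of B16F10 luc2 -1.83, SE 0.08, limma adjusted p = 1.16e-16) and 2.83-fold above D4M (log2 1.5, SE 0.08, adjusted p = 1.87e-15).

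**Figure D4:**
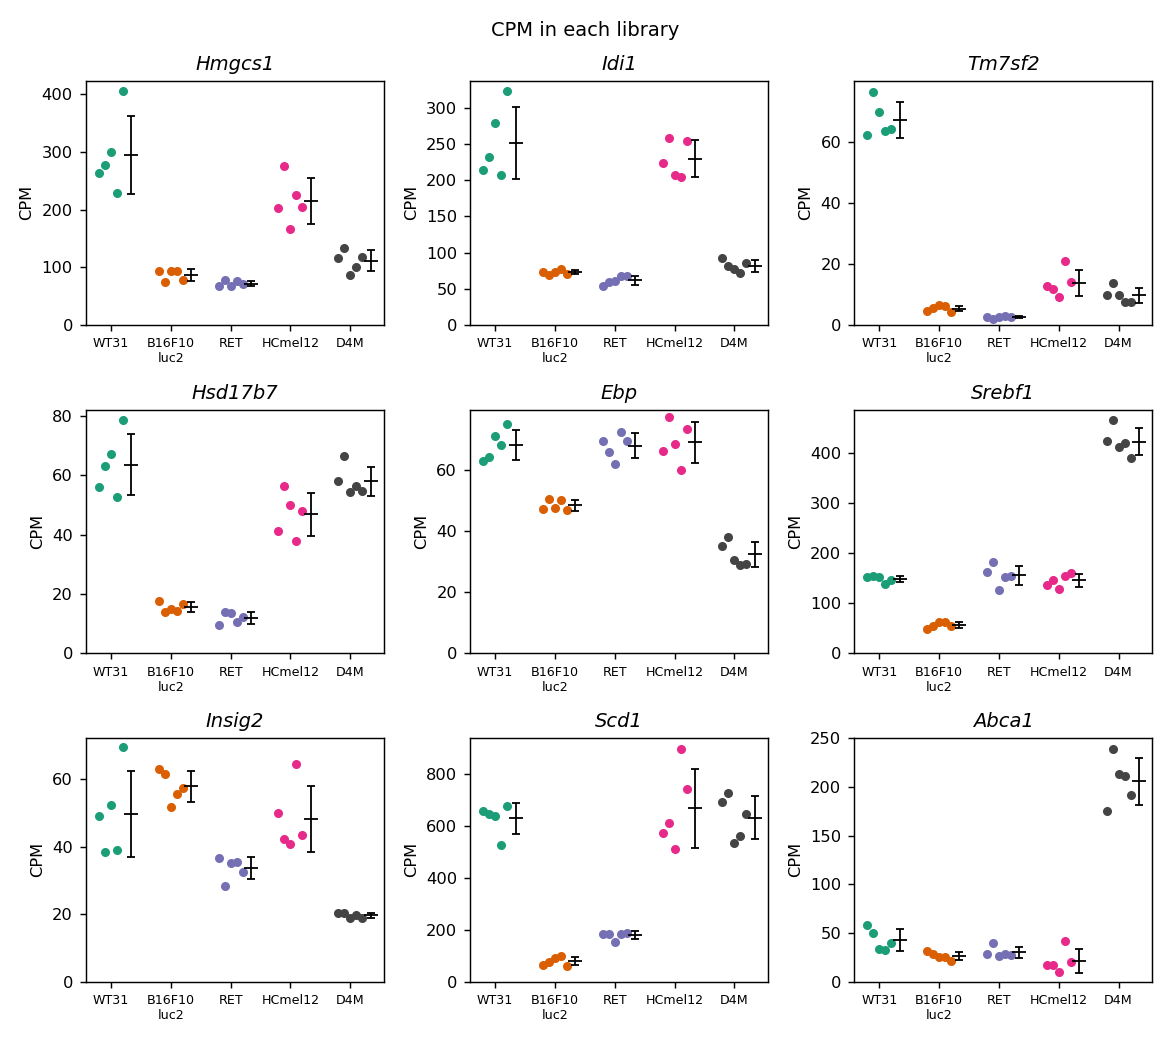
Points give CPM (linear axis from 0) in each of the 5 cultures of the lines for 9 genes, and black bars give the mean and SD. Hmgcs1, Idi1 and Tm7sf2 are high in WT31, D4M is above all other cultures for Srebf1 and Abca1 and below them for Ebp and Insig2, and Scd1 is low in B16F10 luc2 and RET.

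Among the 8 genes of fatty acid synthesis and desaturation, 6 were higher in WT31 than in RET (36.8% of all genes) and 1 was lower (36.4%), and all 8 were lower in RET than in HCmel12 (33.3%). The desaturases were, like most sterol enzymes, lower in RET and B16F10 luc2 than in WT31 and HCmel12. Scd1, which places the double bond of oleate, was at 660, 646, 641, 528 and 679 CPM in WT31, 575, 613, 514, 899 and 744 CPM in HCmel12 and 692, 728, 535, 561 and 647 CPM in D4M. RET had 186, 184, 152, 183 and 190 CPM and B16F10 luc2 66.2, 75.8, 92.6, 99.3 and 61.9 CPM. The first 3 lines overlapped, while RET and B16F10 luc2 were apart from them and from each other. B16F10 luc2 was 8.43-fold below HCmel12 (log2 fold change -3.08, SE 0.13, limma adjusted p = 1.14e-16) and 2.3-fold below RET (log2 fold change -1.20, SE 0.14, adjusted p = 4.36e-08). For WT31 against HCmel12 the log2 fold change of Scd1 was -0.06 (SE 0.13, limma adjusted p = 0.689), and with TPM it was 0.12.

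Scd2, its paralog, had the highest level per transcript length of the 35 genes in each line, with a mean of 736 ± 60.7 transcripts per 1000000 transcripts (TPM) in WT31, 613 ± 109 in HCmel12, 390 ± 57.3 in D4M (n = 4), 388 ± 38.9 in RET and 283 ± 45.0 in B16F10 luc2. In CPM it was at 2433, 2709, 2413, 2353 and 2700 in WT31 and at 2141, 2284, 1733, 2912 and 2777 in HCmel12. D4M had 1520, 1852, 1302, 1586 and 1674 CPM, RET 1529, 1559, 1207, 1461 and 1546 CPM, and B16F10 luc2 842, 1045, 1266, 1256 and 949 CPM. HCmel12 replicate 3 overlapped with D4M, and WT31 lay above D4M, RET and B16F10 luc2. WT31 was 2.38-fold above B16F10 luc2 (log2 1.25, SE 0.12, limma adjusted p = 9.44e-10). Scd1 and Scd2 share 5.84% and 4.83% of their 31-base sequences with Scd3.

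Fads1 and Fads2, neighbouring desaturases of polyunsaturated fatty acids, were also lowest in B16F10 luc2. Fads1 was at 375, 381, 344, 487 and 437 CPM in HCmel12, 316, 311, 315, 294 and 309 CPM in WT31, 249, 270, 244, 227 and 238 CPM in D4M, 190, 171, 148, 177 and 179 CPM in RET and 135, 148, 162, 159 and 128 CPM in B16F10 luc2. The first 3 lines did not overlap in Fads1, and every pair of the 5 lines passed the test. Fads2 was at 366, 396, 316, 403 and 449 CPM in HCmel12, 401, 395, 377, 371 and 321 CPM in WT31, 326, 337, 255, 259 and 292 CPM in D4M, 255, 238, 191, 238 and 241 CPM in RET and 124, 139, 165, 163 and 120 CPM in B16F10 luc2. Compared to HCmel12, B16F10 luc2 was lower by 2.76-fold in Fads1 (log2 fold change -1.46, SE 0.08, limma adjusted p = 1.3e-14) and by 2.72-fold in Fads2 (log2 fold change -1.44, SE 0.10, adjusted p = 2.76e-12).

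Fasn, the fatty acid synthase, departed from this order. It was at 233, 290, 247, 244 and 261 CPM in WT31, which lay below all other cultures. D4M had 644, 487, 652, 588 and 722 CPM, HCmel12 530, 513, 664, 540 and 711 CPM, B16F10 luc2 549, 570, 541, 554 and 685 CPM, and RET 417, 396, 486, 502 and 440 CPM. WT31 was 2.41-fold below D4M (log2 fold change -1.27, SE 0.10, limma adjusted p = 1.18e-11) and 2.31-fold below HCmel12 (log2 fold change -1.21, SE 0.10, adjusted p = 4.97e-11). HCmel12 and D4M had a log2 fold change of -0.06 (SE 0.10, limma adjusted p = 0.574), which was 0.11 with library size alone and 0.14 with TPM. WT31, highest for most sterol enzymes, was thus lowest for Fasn.

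Acaca, which makes malonyl-CoA for Fasn, was low in WT31 (114 ± 6.97 CPM) and in RET (118 ± 3.55 CPM), which overlapped, and highest in D4M (160 ± 12.5 CPM). WT31 was below D4M by a log2 fold change of -0.49 (SE 0.06, limma adjusted p = 1.05e-07). Acaca transcripts share 31.7% of their 31-base sequences with Gm5182. Acly, which makes cytosolic acetyl-CoA for both pathways, ranged from 289 ± 9.30 CPM in RET to 413 ± 45.2 in WT31 (1.42-fold, log2 0.51, SE 0.07, limma adjusted p = 2e-07). Elovl6, the elongase from palmitate to stearate, was highest in HCmel12 (189 ± 22.2 CPM) and lowest in RET (80.8 ± 5.55 CPM; log2 fold change -1.22, SE 0.09, limma adjusted p = 1.08e-11).

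The sterol exporters were high in D4M. Abca1, which loads cholesterol onto lipid-poor apolipoproteins, was at 175, 239, 213, 211 and 192 CPM in D4M. WT31 had 58.6, 50.2, 33.6, 33.0 and 39.7 CPM, RET 28.1, 39.8, 26.9, 28.1 and 27.4 CPM, B16F10 luc2 31.5, 29.0, 25, 25.9 and 20.8 CPM, and HCmel12 17.1, 17.3, 9.49, 41.7 and 19.9 CPM. Every D4M culture lay above the 20 others, of which 58.6 CPM was the highest. D4M was 7.32-fold above the mean of the other lines (log2 2.87, SE 0.15, limma adjusted p = 9.18e-16) and 10.9-fold above HCmel12 (log2 fold change of HCmel12 -3.45, SE 0.22, adjusted p = 1.25e-13). WT31 was 2.23-fold above HCmel12 (log2 1.16, SE 0.23, adjusted p = 7.29e-05), and 1 culture, HCmel12 replicate 4, lay within the range of WT31. The window before the start of Abca1 (chr4:53159896-53160145, minus strand) is printed as that of the exporter for which a window was found, and it held an E-box at -147.
Abca1: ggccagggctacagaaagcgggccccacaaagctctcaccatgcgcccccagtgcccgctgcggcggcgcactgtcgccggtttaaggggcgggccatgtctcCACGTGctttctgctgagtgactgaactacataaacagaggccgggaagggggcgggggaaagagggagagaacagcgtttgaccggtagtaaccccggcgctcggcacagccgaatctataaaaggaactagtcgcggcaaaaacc

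Abcg1, which exports cholesterol to mature HDL, was at 4.6, 4.62, 4.85, 3.11 and 3.32 CPM in D4M. Summed over 5 libraries this was 461 counts, against 9 in HCmel12, 4 in WT31, 2 in RET and 1 in B16F10 luc2. The highest library outside D4M, in HCmel12, was at 0.121 CPM, which is about 3 counts. Against a floor of 3 counts per library, D4M was at least 35.9-fold higher than WT31, 35.1-fold higher than RET and 33.8-fold higher than B16F10 luc2. After division by the TMM-scaled library totals, the 95% exact interval of the ratio of the sums to HCmel12 was 29.4 to 124. This interval covers counting error only, and the HCmel12 libraries were also at the floor. Per transcript length Abcg1 was low even in D4M (1.21 ± 0.687 TPM, n = 4) beside Abca1 (27.2 ± 2.07 TPM). Srebf1, Abca1 and Abcg1 were the 3 of 35 genes with all D4M cultures above the 20 others, where 16.7% of all genes showed this. Abcg1 among them passed the filter only through D4M.

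**Figure D5:**
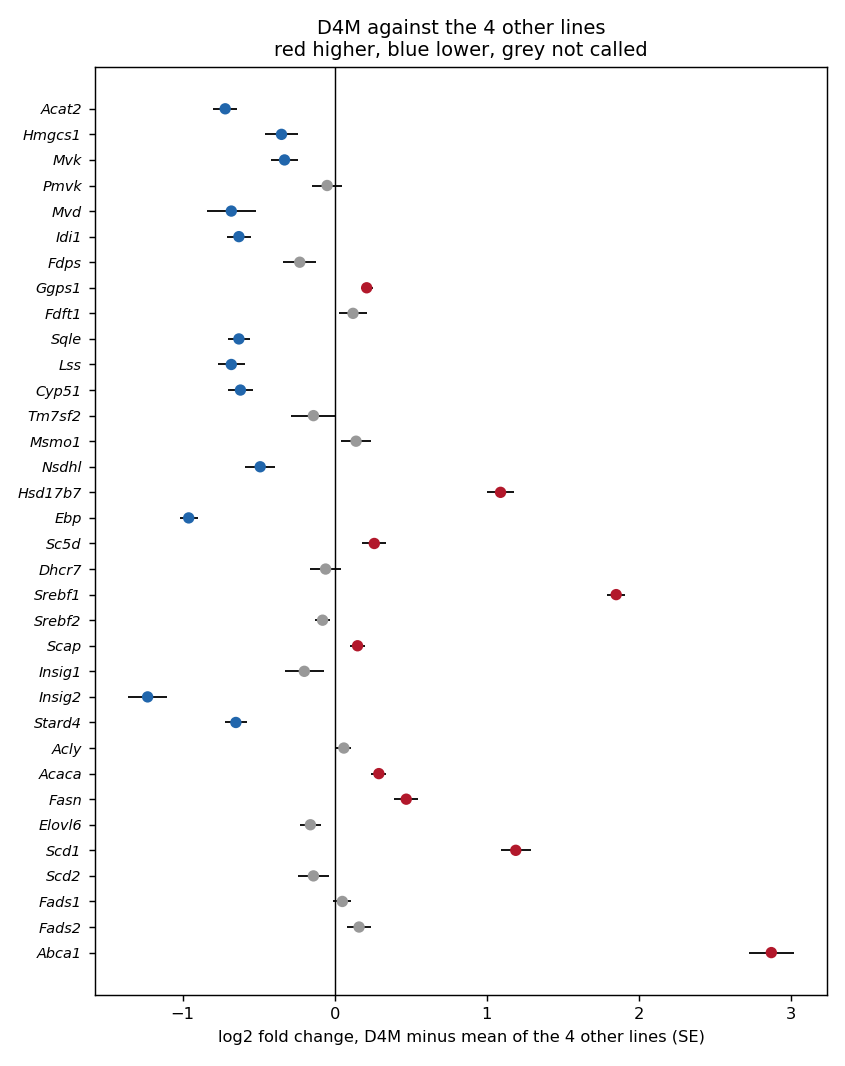
Points give the log2 fold change of D4M against the mean of the 4 other lines for 34 genes, with the SE as bars, and colour gives the call at an adjusted p under 0.05. Abca1 (2.87) and Srebf1 (1.85) are farthest to the right and Insig2 (-1.23) and Ebp (-0.96) farthest to the left, while Abcg1 is left out because a fold against lines at the floor depends on the prior count.

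Other genes of these pathways were taken as lists of related genes. Of 13 other regulators, 6 were higher in WT31 than in RET and 5 were lower, where Mlxipl among the 6 passed the filter only through WT31, and of 12 genes that use isoprenoids it was 6 and 5. Of 26 tested genes among 30 of other fatty acid and glyceride metabolism, 12 were higher and 11 lower in WT31 than in RET. Among the 11, Thrsp passed the filter only through RET and Lpin3 only through D4M. Of all genes, 36.8% were higher and 36.4% lower in this comparison. Of 17 tested genes among 21 of uptake, storage and efflux, 4 were higher and 7 were lower in WT31 than in RET, and 13 were higher and 2 lower in D4M than in the mean of the other lines, where 38.7% and 39.6% of all genes were called. The 13 include Ch25h, which passed the filter only through D4M. The counts of these lists were not repeated under library size alone, which moved the median of all genes in this comparison from -0.02 to -0.21.

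In each list the 2 genes with the widest range were examined. Vldlr, a receptor that takes up lipoproteins, was at 84.1 ± 6.72 CPM in WT31 and 67.5 ± 11.8 in D4M, at 0.681 ± 0.217 in RET, and had at most 1 count per library in B16F10 luc2 and at most 2 in HCmel12. Ch25h makes 25-hydroxycholesterol, an oxidized sterol that acts on LXR and INSIG. It was at 4.51 ± 1.85 CPM (range 2.57 to 7.46) in D4M, had no count in B16F10 luc2 and HCmel12, and had at most 1 count per library in WT31 and RET. Against a floor of 3 counts per library, D4M was at least 37.2-fold higher than B16F10 luc2 and at least 37.3-fold higher than HCmel12. Mylip, which marks lipoprotein receptors for degradation and is another known LXR target, was lowest in D4M (5.26 ± 1.57 CPM) and highest in WT31 (91.2 ± 22.9 CPM). The D4M cultures had 3.97 to 7.58 CPM of Mylip and overlapped with B16F10 luc2 (7.43 to 16.8 CPM), so that the order of Mylip was not that of Abca1, Abcg1 and Srebf1.

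Mlxipl, which encodes the sugar-responsive factor ChREBP, was near the floor, at 0.842 ± 0.359 CPM in WT31 and at most 0.105 CPM on average elsewhere. Lpin3, a phosphatidate phosphatase, was at 14.5 ± 1.84 CPM in D4M and at most 0.485 CPM in every other culture. Fads3, the third gene of the desaturase cluster, was at 71.2 ± 12.2 CPM in D4M and 28.7 ± 4.91 in HCmel12, against 1.33 ± 0.14, 0.615 ± 0.121 and 0.252 ± 0.113 CPM in B16F10 luc2, RET and WT31. It did not follow its neighbours Fads1 and Fads2, which were high in WT31. Nus1, of dolichol synthesis, was highest in B16F10 luc2 (190 ± 10.1 CPM) and lowest in HCmel12 (56.0 ± 5.70 CPM), and Rabggta, of Rab prenylation, ranged from 6.82 ± 0.465 CPM in B16F10 luc2 to 22.9 ± 3.06 in D4M.

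Set beside the growth conditions, the widest difference in summed mevalonate and sterol enzymes was found between 2 lines with the same recorded medium. The genes of fatty acid synthesis and desaturation were not part of these sums. WT31 and RET, both in RPMI with 10% serum, had summed enzyme levels of 2820 ± 474 and 1114 ± 67 CPM. HCmel12, in supplemented RPMI with 10% serum, was at 2269 ± 253 CPM, and D4M, in 5% serum, at 1434 ± 104 CPM. B16F10 luc2, in RPMI with 10% serum by the methods, was at 1391 ± 126 CPM. The lot and lipid content of the serum are not given in the sources used here. How far medium or serum contributed to the levels was not tested.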

How the data were processed

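RNA was sequenced from 25 cultures of 5 murine melanoma lines, 5 per line. Per the submitters' processing notes the authors trimmed reads with Trim Galore 0.6.4 and quantified them with kallisto 0.4.6 against GRCm38.p6 transcripts. The GENCODE release is not given in the sources used here. The authors deposited estimated counts per gene, of which 24.5% to 26.61% per library were not whole, and TPM values that sum to 1000000 per library. Estimated counts divide ambiguous reads between similar transcripts by a model, which affects genes with close copies. TPM of D4M replicate 1 was not used here, so that TPM covers 24 libraries.

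Genes with low counts were removed with filterByExpr by line (edgeR 4.0.16 in R 4.3.3), which left 15247 of 55385 genes. Counts were scaled with TMM factors, and limma-voom (limma 3.58.1) was fitted with a mean per line over all 25 libraries. Each of 10 pairs of lines, and D4M against the mean of the 4 other lines, was tested two-sided with Benjamini-Hochberg adjustment over all tested genes, at 0.05 and with no limit on the fold change. The procedure was tested on simulated data. The scaled CPM values are given as mean ± SD of 5 cultures. The floor was 3 counts per library, and intervals and floors cover counting error only. Sequences shared between genes were counted over all 31-base stretches of the transcripts.

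All 35 genes could be named. Values in every culture were given for up to 3 genes with the widest range in each role and for Srebf1, Srebf2, Insig1, Fasn, Scd1 and Scd2, and Ebp was added after its values were seen. From each list of other pathway genes the 2 with the widest range were named. Some details of the genotypes of the lines are not reported here. The genes, lists and tests were chosen with earlier results of these data known. Alternatives were scaling by library size or DESeq2 size factors, the edgeR quasi-likelihood and DESeq2 (1.42.0) Wald tests on rounded counts, no filter or at least 10 counts in every library, a replicate block, fits of 2 lines only, log2 TPM with a pseudocount of 1 or 0.1, a limit of 1 on the absolute log2 fold change, and leaving out each library.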

Additional observations from a re-analysis of the deposited data

Results flagged for a closer look

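In 9 of 175 combinations of a gene and a line, 1 culture stood apart from the other 4 by more than Dixon's 95% critical value, where chance gives about 1 in 20. Desaturases made up 4 of them. RET replicate 3 was low for Scd1 (152 CPM against 183 to 190 in the other RET cultures), Scd2 (1207 against 1461 to 1559) and Fads2 (191 against 238 to 255), and WT31 replicate 4 was low for Scd1 (528 against 641 to 679). In fatty acid synthesis, B16F10 luc2 replicate 5 was high for Fasn (685 CPM against 541 to 570) and RET replicate 1 was low for Elovl6 (71.0 against 82.5 to 84.5). HCmel12 replicate 4 was low for Scap (73.7 CPM against 82.6 to 86.1). RET replicate 2 was high for Abca1 (39.8 CPM against 26.9 to 28.1), still below every D4M culture. Abcg1 in B16F10 luc2 replicate 4 was at 0.0413 CPM, which is a single count against none in the others and is below the floor.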

How the results depend on the processing

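The numbers of genes called depended most on a fold limit, on the scaling in comparisons with D4M, and on the unit. Changes under 1 on the log2 scale in either direction were left out, and counts higher and lower are given with the shares of all genes. They became 15 and 1 (17.7% and 13.7%) for WT31 against B16F10 luc2, and 15 and 0 (16.6% and 14.5%) for WT31 against RET. RET against HCmel12 had 0 and 16 (12.4% and 14.2%), and WT31 against HCmel12 had 3 and 2 (15.0% each). B16F10 luc2 against RET had 2 and 2 (6.09% and 8.18%). Against D4M, B16F10 luc2 had 1 and 6 (18.1% and 21.7%), RET 1 and 7 (18.4% and 20.8%) and HCmel12 7 and 3 (17.5% and 17.9%). D4M against the other lines had 5 and 1 (18.5% and 17.5%). The count higher in WT31 than in D4M became 13 (18.6%), and none was higher in B16F10 luc2 than in HCmel12 (12.2%). The counts at this limit include Abcg1 wherever it was called, although it passed the filter only through D4M. With library size alone the counts were 7 and 14 for RET against D4M and 6 and 21 for D4M against the other lines, and 3 genes were lower in HCmel12 than in D4M. With TPM at either pseudocount they were 20 and 5 for WT31 against HCmel12 (42.2% and 24.6% of all genes at a pseudocount of 1). For D4M against the other lines they were 6 and 20 (29.5% and 47.4%). WT31 then had 1 gene lower than B16F10 luc2 (28.7%) and 1 lower than RET (29.4%). Why these counts moved was not tested, except that a fold limit removes small changes by construction.

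The single gene higher in B16F10 luc2 than in HCmel12 became 0 under each of the other settings that used all libraries or the 2 lines only, namely library size, DESeq2 size factors, the edgeR quasi-likelihood test, the DESeq2 Wald test, both filters, the replicate block, and TPM. It was 0 to 2 when single libraries were left out. Those higher in RET than in HCmel12 were 1 with the edgeR quasi-likelihood test and the DESeq2 Wald test, and 1 to 2 when single libraries were left out. No other count moved by over 1.5 times when a library was left out.

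Of 1686 values of 47 named changes under the alternatives, 1655 kept direction and call, 11 lost the call, 13 gained it and 7 changed sign. The log2 fold change of Scd1 between WT31 and HCmel12 became 0.12 with TPM, and ranged from -0.15 to 0.05 when single libraries were left out, with 0.00 without WT31 replicate 4 and 0.05 without HCmel12 replicate 4. That of Fasn between HCmel12 and D4M became 0.11 with library size alone and 0.14 with TPM.

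Replicate numbers did not pair the cultures: the mean correlation of same-numbered cultures lay between -0.129 and 0.104 over the 10 pairs of lines, and 5 of 25 cultures correlated best with their own number. With the replicate block the counts were 13 and 10 for B16F10 luc2 against RET, 21 and 6 for HCmel12 against D4M, 0 and 26 for B16F10 luc2 against HCmel12, and 10 and 13 for D4M against the other lines, and the counts of the other comparisons equalled those of the fit without the block. At this depth Abcg1 outside D4M could not be told from the floor.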
